A study of Mus musculus with 61 samples.

Results

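The 16 control oocytes were ranked by their summed level of the zona pellucida transcripts Zp1, Zp2 and Zp3, and the 8 cells with the highest sum (zona-high) were set against the 8 with the lowest (zona-low), of 61 cells in the series. The cells were thus chosen by measured CPM of these 3 genes, as a stand-in for the growth state of each oocyte, so the zona genes are given as a description and no difference was tested. CPM is a gene's count scaled to 1000000 counts of its cell.

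The cells came from ovaries of wild-type CD-1 mice, an outbred stock, at postnatal day 5, and the control oocytes were collected 6 hours after an intraperitoneal injection of solvent. The other groups were 16 oocytes and 13 granulosa cells taken 6 hours after doxorubicin, a DNA-damaging anti-cancer drug, and 16 granulosa cells after solvent. The title of the series names oocyte JNK and ovarian insufficiency after DNA-damaging agents. No animal, follicle stage or cell diameter was named for any cell, so the 16 control oocytes counted as 1 sample, and values below describe these cells only.

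Oocytes of a newborn mouse rest in primordial follicles. When one is recruited, the oocyte enlarges, lays down the zona pellucida, the glycoprotein coat through which sperm later enter, and fills with RNA and protein for the early embryo. ZP1, ZP2 and ZP3 are the building blocks of the coat. Among the stored maternal products is the subcortical maternal complex, a protein assembly under the oocyte membrane that cleavage of the early embryo requires.

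The zona sum formed a continuous series with no gap at the dividing point. It ran from 12941 to 19001 CPM in the zona-high cells, with a median of 16228, and from 6384 to 12515 CPM in the zona-low cells, with a median of 10248. The cell just inside the zona-high set, control oocyte 16, had 12941 CPM and the cell just outside it, control oocyte 7, had 12515. The highest sum was 2.98 times the lowest. All 16 cells lay above the 16 control granulosa cells, whose zona sum ran from 26.8 to 2814 CPM. Other oocyte markers, summed over 15 genes, ran from 16118 to 38335 CPM in the 16 oocytes, and their median in the granulosa cells was 1148, so the oocyte label held.

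Zp2 ranged from 7840 to 12492 CPM (median 9904) in the zona-high cells and from 4234 to 8300 (median 6667) in the zona-low cells. Zp3 ranged from 3279 to 5269 CPM (median 3611) against 1445 to 3298 (median 2024), and Zp1 from 1506 to 2750 (median 2062) against 622 to 1983 (median 1290). The log2 ratios of the summed counts were 0.68 for Zp1, 0.63 for Zp2 and 0.81 for Zp3. Each of the 3 genes overlapped between the sets. Their levels varied together across the 16 cells, with Spearman correlations of 0.74 for Zp1 with Zp2, 0.76 for Zp1 with Zp3 and 0.85 for Zp2 with Zp3. These correlations across cells are descriptions, since all points come from 1 set of libraries and CPM values of a cell share 1 total.

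**Figure D1:**
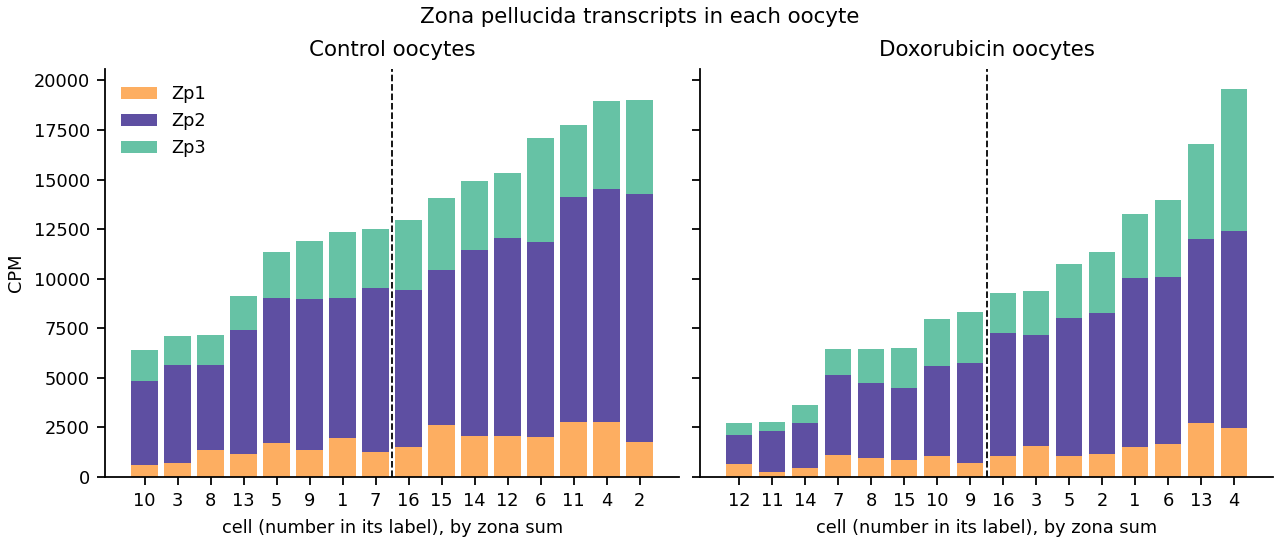
Bars stack the CPM of Zp1, Zp2 and Zp3 in each control oocyte (left) and each doxorubicin oocyte (right), in order of the zona sum, with a dashed line at the dividing point. The sum climbs without a step from 6384 to 19001 CPM in control oocytes and spans 2717 to 19579 CPM in doxorubicin oocytes.

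The regulator FIGLA is known to drive the zona genes through E-boxes, short DNA elements of the form CANNTG, in their promoters. To show what such promoters look like, the 250 bases upstream of annotated RefSeq transcript starts (build GRCm38.p6) are given for Zp3, one of the ranking genes, and for 3 genes of the subcortical maternal complex described below. Padi6 is its most abundant member, and Khdc3 and Tle6 had the highest ratios among members with reads in every cell. Each E-box is in capitals, found on both strands because the pattern is its own reverse complement, and overlapping matches were kept. The windows lie at chr5:135979855-135980104 on the plus strand for Zp3, chr4:140742644-140742893 on the minus strand for Padi6, chr9:73102148-73102397 on the plus strand for Khdc3 and chr10:81600901-81601150 on the minus strand for Tle6. For Khdc3 and Tle6 the start is not the outermost one of the gene.
Zp3: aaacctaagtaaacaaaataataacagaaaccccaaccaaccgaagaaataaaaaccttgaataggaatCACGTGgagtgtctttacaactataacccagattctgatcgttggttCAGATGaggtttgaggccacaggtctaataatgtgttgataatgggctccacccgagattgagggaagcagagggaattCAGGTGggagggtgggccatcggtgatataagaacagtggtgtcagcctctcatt
Padi6: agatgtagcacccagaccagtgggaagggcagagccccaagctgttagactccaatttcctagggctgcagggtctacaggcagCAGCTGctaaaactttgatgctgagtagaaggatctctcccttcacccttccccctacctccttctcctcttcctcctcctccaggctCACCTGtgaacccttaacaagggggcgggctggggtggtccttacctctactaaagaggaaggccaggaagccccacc
Khdc3: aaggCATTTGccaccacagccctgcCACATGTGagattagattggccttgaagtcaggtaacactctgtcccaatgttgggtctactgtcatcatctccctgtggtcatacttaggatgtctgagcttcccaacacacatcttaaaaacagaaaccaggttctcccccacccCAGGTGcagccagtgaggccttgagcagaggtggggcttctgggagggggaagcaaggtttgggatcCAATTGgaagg
Tle6: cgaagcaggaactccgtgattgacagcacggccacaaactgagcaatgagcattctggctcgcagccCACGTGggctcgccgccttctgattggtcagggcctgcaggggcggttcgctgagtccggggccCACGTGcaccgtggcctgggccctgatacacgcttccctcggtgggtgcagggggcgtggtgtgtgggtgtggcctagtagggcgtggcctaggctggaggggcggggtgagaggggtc
The Zp3 window holds 3 E-boxes, starting 181, 134 and 55 bases before the start, and the first of them has the letters CACGTG. The Padi6 window holds 2 and the Khdc3 window 5. The Tle6 window shown holds 2, both of the CACGTG form, and the window at the other annotated Tle6 start holds 4 E-boxes and 0 of that form. At least 1 E-box stood in 66.2% of 32851 RefSeq windows of this length, while the CACGTG form stood in 6.02% and at least 2 copies of it in 0.429%. Windows were found for 10 of 15 genes looked up, and 2 of the 10 had the CACGTG form. A match is a description of the letters and shows no binding.

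Few of the other genes differed by 2-fold or more between the zona-high and zona-low cells. Of 10930 genes with at least 5 CPM in either set, 374 (3.42%) were at least 2-fold higher in the zona-high cells and 583 (5.33%) were at least 2-fold lower. The median log2 ratio was -0.07 and the middle of the distribution lay between -0.31 and 0.18 (quartiles). Every zona-high cell lay above every zona-low cell for 0 genes (0%), and below for 2 genes (0.0183%). Those 2 were Arpc1a, an actin-nucleating ARP2/3 complex subunit, at 162 to 216 CPM against 217 to 267, and Rnf167, a ubiquitin ligase, at 398 to 483 against 529 to 638. Their ratios were small, at -0.35 and -0.36.

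The oocytes also differed in the transcripts of other cells. The summed level of 18 granulosa markers ran from 2.49 to 447 CPM (median 36.8) in the zona-high cells and from 7.0 to 772 CPM (median 197) in the zona-low cells, and was 200 CPM or more in 2 zona-high and 4 zona-low cells. In the 16 control granulosa cells it ran from 421 to 13902 CPM. Of the 18 markers, 6 reached 5 CPM in either set and 5 of these were lower in the zona-high cells, with a median log2 ratio of -0.84, where 57.4% of all genes were lower. Inha, the inhibin subunit that led the list, had 1.2 to 278 CPM (median 22.1) against 6.17 to 660 (median 58.3) at a ratio of -0.89, and of 0.14 once control oocyte 7 was left out. Fst, the activin-binding follistatin, went the other way at 0.87 and was at -1.02 without control oocyte 16. Fshr and Lgr5 were listed at 0 in every zona-high cell but were under 5 CPM in the zona-low set too, so they were not compared. Gata4, a transcription factor of somatic gonadal cells, had 0.88 CPM against 13.2. It was thus compared only because it reached 5 CPM in the zona-low set, and Fst only through the zona-high set. Of the 6 markers, 2 were lower whichever single cell was left out. The sum of 8 stroma markers had a median of 14.5 CPM against 48.7, with 917 CPM in control oocyte 4, 838 in control oocyte 5 and 725 in control oocyte 9. The Spearman correlation with the zona sum was -0.30 for the granulosa sum and -0.28 for the stroma sum. Endothelial markers stayed at or below 34.2 CPM and blood markers at or below 22 CPM in every control oocyte.

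**Figure D2:**
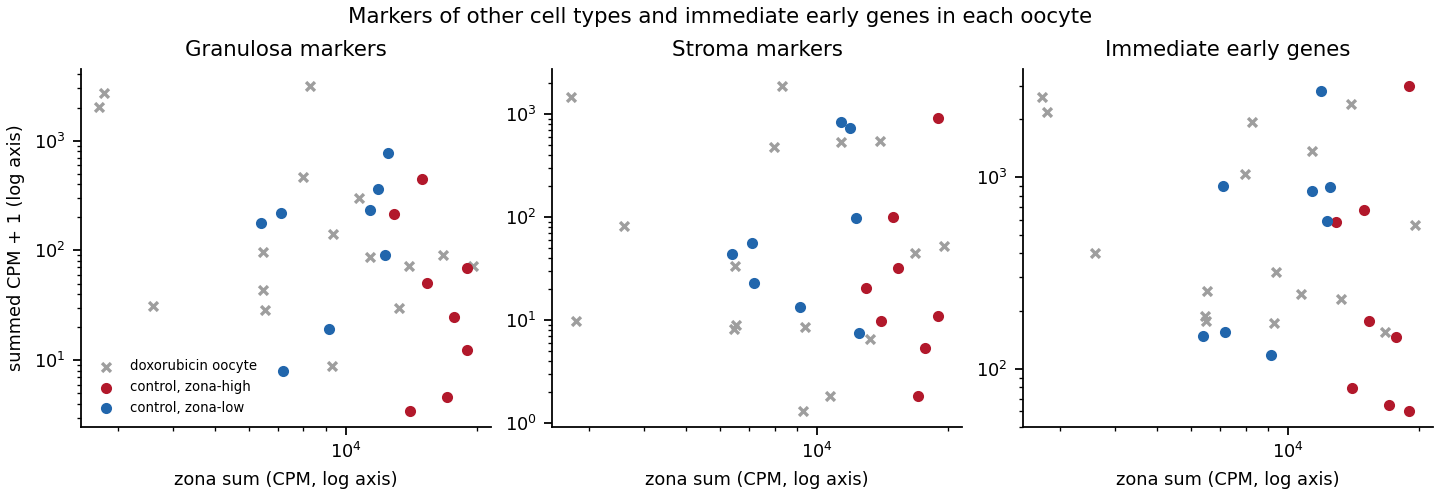
Points are single oocytes, with the zona sum on the horizontal log axis and the summed CPM (plus 1) of granulosa markers, stroma markers or immediate early genes on the vertical log axis. Zona-high control cells reach lower granulosa sums than most zona-low cells, and 2 of 8 zona-high against 4 of 8 zona-low cells pass 200 CPM.

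Total counts ran from 10226249 to 31262609 (median 11155773) in the zona-high cells and from 7873836 to 12617012 (median 10602728) in the zona-low cells. The deepest was control oocyte 16, the last cell inside the zona-high set, so it weighs most in sums over that set. The Spearman correlation of the zona sum with the total was 0.14. After each cell was thinned to 1000000 counts, the median number of genes detected was 12282.5 in the zona-high and 11965 in the zona-low cells. Unthinned, the medians were 13840 and 13354.5.

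The subcortical maternal complex was higher where the zona sum was higher. All 8 members had a higher summed level in the zona-high cells, where 42.6% of all genes did, with a median log2 ratio of 0.61. For Padi6, Nlrp5, Tle6, Ooep, Khdc3 and Zbed3 this direction held whichever single cell was left out. The summed level of the 8 transcripts ran from 25720 to 37480 CPM (median 31622) in the zona-high cells and from 12185 to 29091 (median 20418) in the zona-low cells, with a Spearman correlation of 0.71 against the zona sum. The same sum in the control granulosa cells had a median of 1450 CPM.

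Padi6, a peptidylarginine deiminase that forms the cytoplasmic lattices of the oocyte, had 15080 to 22958 CPM (median 16930) in the zona-high cells and 6160 to 16465 (median 10947) in the zona-low cells. In 4 of 8 zona-high cells Padi6 lay above every zona-low cell, and its log2 ratio was 0.63 (95% exact binomial interval of the counts 0.62 to 0.63, counting error only). Nlrp5, the founding maternal-effect gene of the complex, had 2142 to 8585 CPM (median 6189) against 1933 to 6665 (median 3161), with a ratio of 0.59. Tle6, a co-repressor-like scaffold of the complex, had 1856 to 3800 CPM (median 2870) against 956 to 2501 (median 1797) and a ratio of 0.80, and 5 zona-high cells lay above all zona-low cells.

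Ooep, a KH-domain RNA-binding member, had a ratio of 0.41, with medians of 2747 and 1759 CPM. Khdc3, another KH-domain member, had 118 to 454 CPM (median 322) against 32.5 to 386 (median 107). Its ratio of 1.14 had a counting interval of 1.11 to 1.17 but ran from 0.89 to 1.47 over leaving out each cell. Zbed3 stood at 0.25 and Nlrp4f at 0.03, so these members were close to level between the sets. Zbed3 turned to -0.33 among control oocytes under 200 CPM of granulosa markers. Nlrp2 had counts in 1 control oocyte only, number 16, at 23.4 CPM, and was listed at 0 in the other control oocytes. Its higher sum rests on that cell, so no ratio is given here. It still counts among the 8 members and in their median.

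The size of the complex's difference depended on the ranking measure. Ranking by the mean log2 level of the 3 zona genes moved control oocyte 16 to the zona-low set and control oocyte 1 to the zona-high set, and the list median was then 0.24, with 7 of 8 members higher. With control oocyte 16 only left out and the rest ranked again it was 0.57. Under the log2 ranking Khdc3 was at 0.26 and Tle6 at 0.08, while Nlrp14 and Ooep stayed at 0.55 and 0.51. Among the 10 control oocytes under 200 CPM of granulosa markers, ranked again as 5 against 5, the median was 0.44 with 5 of 7 members higher. Padi6 was then at 0.07, Nlrp5 at 1.06 and Khdc3 at 0.63.

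**Figure D3:**
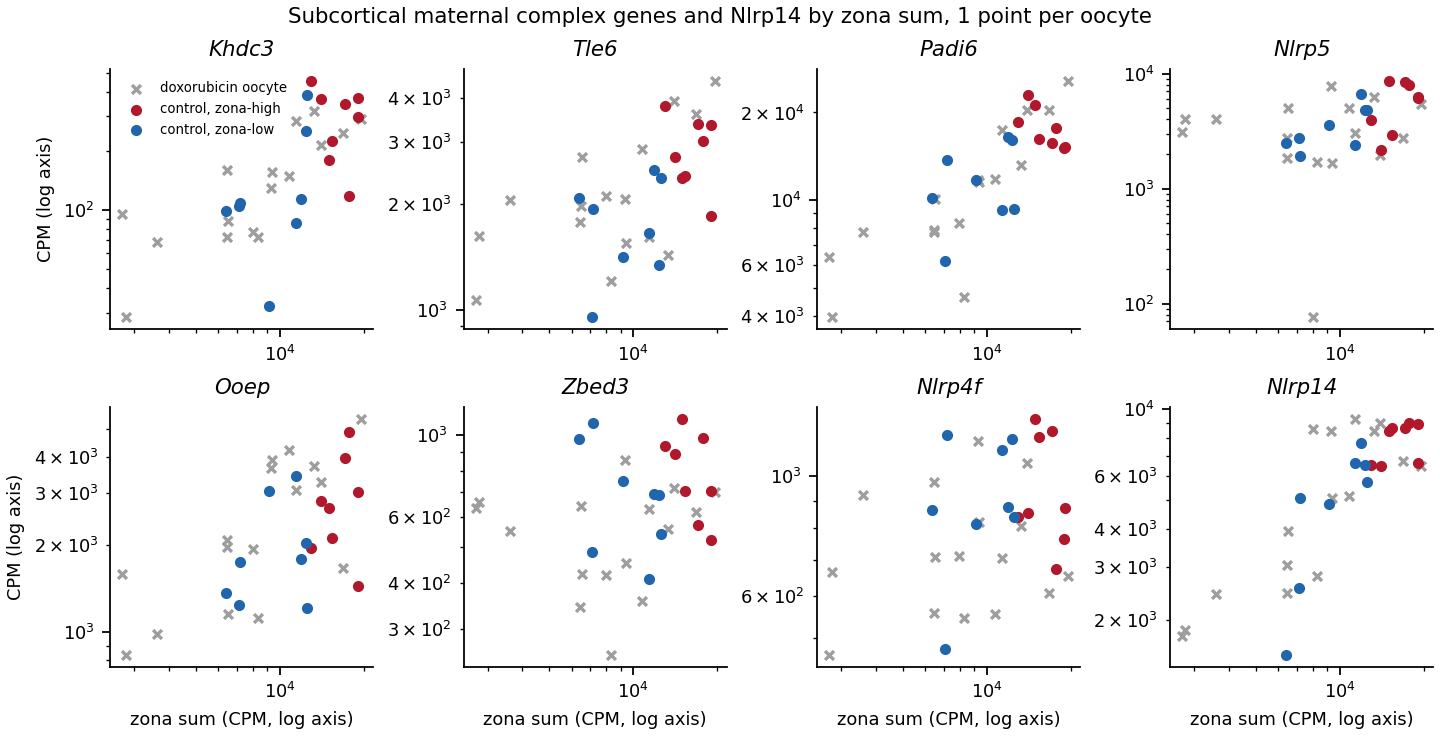
Each panel plots 1 gene's CPM (log axis) against the zona sum (log axis), with control oocytes as red (zona-high) or blue (zona-low) points and doxorubicin oocytes as grey crosses. Nlrp14 climbs with the zona sum in both treatments, whereas Nlrp4f and Zbed3 are spread evenly. Padi6 follows the zona sum closely in doxorubicin oocytes (Spearman correlation 0.92) and less so in control oocytes (0.53).

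Other oocyte-specific members of the Nlrp and Oog families showed the same direction. Nlrp genes encode NOD-like receptor proteins that are abundant in oocytes, and many are close copies of each other, so the counts of single members are uncertain where reads fit several. Of 14 listed, 9 reached 5 CPM, with a median of 0.60. Of these 9, 8 were higher in the zona-high cells, where 42.6% of all genes were. At least 2-fold higher were 3, where 3.42% of all genes were. Among these, Nlrp9a reached 5 CPM in the zona-high set only, so it was compared because it was high there. Nlrp14, the most abundant, had 6475 to 8963 CPM (median 8547) in the zona-high cells and 1532 to 7732 (median 5400) in the zona-low cells. Its ratio was 0.57 and its Spearman correlation with the zona sum was 0.83. In 5 of 8 zona-high cells Nlrp14 lay above every zona-low cell.

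Nlrp4a had 10.4 to 75 CPM (median 50.6) against 0 to 42.8 (median 6.77), a ratio of 2.12. Nlrp9a had the highest ratio of the list, 2.95 (counting interval 2.72 to 3.20), at medians of 8.65 and 0 CPM. By summed counts it had 14.3 CPM against 1.84. Oog3 was the exception at -0.40, and turned to 0.56 without control oocyte 5. With only control oocytes under 200 CPM of granulosa markers, 9 of 10 members compared were higher and the median was 0.68.

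Growth factors that the oocyte sends to its follicle were mixed. Gdf9, which drives granulosa growth, had 701 to 1470 CPM (median 1105) in the zona-high cells and 409 to 966 (median 873) in the zona-low cells, with a ratio of 0.52. Bmp15, its partner, had medians of 32.6 and 35.4 CPM and a ratio of -0.08. Oosp2, an oocyte-secreted protein, stood at 0.64 at medians of 7.53 and 2.02 CPM, but at -0.99 with only cells under 200 CPM of granulosa markers. The median of the 4 members compared was 0.28, and it was -0.39 with only cells under 200 CPM of granulosa markers.

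Among genes of chromatin and DNA methylation 13 of 17 were higher, where 42.6% of all genes were, with a median of 0.26 against -0.07 over all genes. Only 1 was at least 2-fold higher, where 3.42% of all genes were. Growing oocytes establish maternal DNA methylation. Dnmt3b, a de novo DNA methyltransferase, had 2.08 to 82.5 CPM (median 28.5) against 0 to 32.7 (median 6.61), a ratio of 1.43. Npm2, a histone chaperone of the oocyte nucleus, had medians of 388 and 202 CPM and a ratio of 0.96. Dnmt1, the maintenance methyltransferase, stood at 0.65 and Uhrf1, its partner, at 0.60. These last 3 genes were chosen for mention after their values were seen.

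Dppa3, a maternal protector of methylation and the most abundant of the list, had medians of 3614 and 3412 CPM and a ratio of 0.27. Hira, a histone H3.3 chaperone, had the lowest ratio, -0.85, at medians of 2.12 and 3.71 CPM. Among control oocytes under 200 CPM of granulosa markers, 10 members of this list were higher and the median was 0.09.

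The transcription regulators that maintain the oocyte programme were level. Of 13 compared, 5 were higher and 8 lower, where 42.6% of all genes were higher, with a median of -0.03. Nobox, a homeobox regulator of oocyte genes, had medians of 2337 and 2121 CPM and a ratio of 0.12. Figla had medians of 444 and 449 CPM and a ratio of -0.03, and Sohlh1, a regulator of early follicle growth, stood at -0.04. Figla ranged from 347 to 659 CPM in the zona-high and from 194 to 722 CPM in the zona-low cells, so the zona-low range enclosed the other. Lhx8, a LIM-homeobox regulator, stood at -0.22, and Pou5f1, a pluripotency factor kept in oocytes, at 0.38.

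The KIT and PI3K pathway, whose signal to the oocyte starts its growth, had 8 of 20 members higher and a median of -0.11. This count is near the share of all genes that were higher, 42.6%. Kit, the receptor on the oocyte surface, had 306 to 766 CPM (median 437) in the zona-high cells and 359 to 1567 (median 556) in the zona-low cells, with a ratio of -0.23. It was 0.01 without control oocyte 10. Stk11, an upstream growth-restraining kinase, had the lowest ratio, -1.28, at medians of 7.24 and 12.2 CPM.

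Genes of meiotic prophase, in whose late stage mouse oocytes arrest around birth, were on both sides of 0. Of 18 compared, 10 were higher, where 42.6% of all genes were, with a median of 0.03. Sycp3, a core protein of the synaptonemal complex, had medians of 694 and 884 CPM and a ratio of -0.21, and Syce1, a central element protein, had 252 and 344 CPM and -0.37. Msh5, a crossover factor, was at 0.95 with medians of 30.4 and 16.1 CPM.

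For meiotic arrest and maturation, 14 of 24 members were higher, where 42.6% of all genes were, and the median was 0.10. Fzr1, an activator of the anaphase-promoting complex that keeps oocytes arrested, had medians of 1087 and 950 CPM and a ratio of 0.16. Aurkc, a meiotic kinase, was at 1.56 with medians of 22.9 and 8.03 CPM. Cdc25c, a phosphatase that activates CDK1, stood at 0.99 and Fbxo5, an inhibitor of the anaphase-promoting complex, at 0.89. Both were chosen for mention after their values were seen.

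Among mRNA storage genes, 8 of 12 were higher, with a median of 0.07. Over all genes 42.6% were higher, a share that also stands beside the other lists of this paragraph. Zar1, which organizes stored maternal mRNA, had 136 to 974 CPM (median 514) against 0 to 517 (median 231) and a ratio of 1.14, while Cpeb1, a translational regulator, had medians of 646 and 695 CPM and a ratio of -0.05. The piRNA pathway, which silences transposons, had 8 of 15 members higher and a median of 0.08. Fertilization genes were split at 5 of 10, from Astl, the protease that cleaves ZP2 after fertilization, at 0.50, to the calcium channel gene Cacna1h at -1.27. Junction genes had 2 of 9 higher and a median of -0.10, and Gja4, the gap junction protein of the oocyte surface, stood at -0.10.

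Ribosomal protein genes had a small uniform shift that depended on which cells were kept. All 78 compared were lower in the zona-high cells, with a median of -0.25. Over all genes 57.4% were lower and 42.6% higher. However, 5 of the 78 were higher when cells had equal weight. Among control oocytes under 200 CPM of granulosa markers 62 were higher, with a median of 0.17. The summed ribosomal protein level had medians of 20609 and 20618 CPM. The respiratory chain, with 14 of 72 higher and a median of -0.12, likewise had 47 higher and a median of 0.09 in the cells under 200 CPM of granulosa markers. Immediate early genes had a median of -0.49, with 3 of 15 higher, and 1.35, with 11 higher, in those cells. Their summed level ran from 59.6 to 2999 CPM in the zona-high and from 117 to 2819 in the zona-low cells. The cell at 2999 CPM, control oocyte 4, stayed in the zona-high set under 200 CPM of granulosa markers. It had 917 CPM of stroma markers. With cells of 200 CPM or more of stroma markers also left out, Fos turned from 2.46 to -2.43 and Zfp36 from 3.48 to -1.84. Egr2 was at -6.80 and -6.81, but a ratio of this size can rest on very few counts in 1 set.

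**Figure D4:**
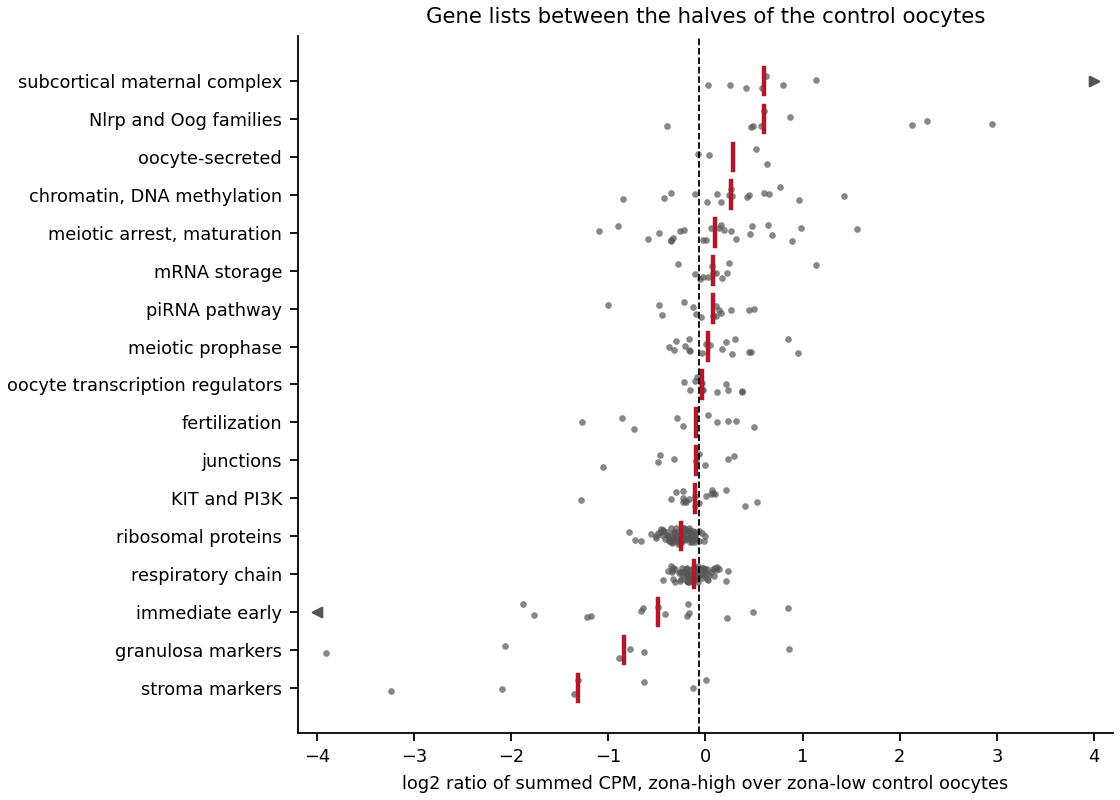
Each grey point is the log2 ratio (zona-high over zona-low control oocytes) of 1 gene with at least 5 CPM in either set, the red bar is the median of its list, and the dashed line is the median of all genes compared, -0.07. The subcortical maternal complex and the Nlrp and Oog families lie farthest to the right, and granulosa and stroma markers farthest to the left; triangles stand for values beyond the axis.

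The 10 genes with the highest ratios that held over leaving out each cell were Nlrp4a, Elobl, Fam151a, Acp4, Dnah11, Miox, Slc4a8, Bco1, 9330182L06Rik and Zar1. Their log2 ratios lay between 1.14 and 2.35. Elobl, an elongin B-like gene, had 14.7 to 400 CPM (median 168) in the zona-high cells and 0 to 186 (median 17.8) in the zona-low cells. Acp4, an acid phosphatase, had 12.9 to 107 CPM (median 52.9) against 0.08 to 35.7 (median 24), and 6 of 8 zona-high cells lay above every zona-low cell. Slc4a8, a sodium-driven bicarbonate exchanger, had medians of 70.5 and 20.8 CPM and the highest Spearman correlation of these genes with the zona sum, 0.77. Miox, an inositol-degrading oxygenase, had medians of 103 and 36.8 CPM.

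The ranking measure mattered here too. With the log2 ranking, Elobl stood at -0.11 and Dnah11, an axonemal dynein gene, at -0.21, against 1.79 and 1.24 when control oocyte 16 alone was left out. The other 8 were still higher under that ranking, but 9330182L06Rik, Acp4 and Bco1 were at 0.20, 0.34 and 0.39. Among control oocytes under 200 CPM of granulosa markers 9 of 10 were still higher, with Dnah11 down at 0.14 and Nlrp4a at 0.66. Bco1, a carotenoid-cleaving oxygenase, stood at -0.60. When cells with 200 CPM or more of stroma markers were also left out, all 10 were higher, with Bco1 at 0.09.

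The 10 lowest by the same rule were Acaa2, Nr1d1, Gatm, Igf2r, Dag1, Anxa2, Prps1, Tuba1a, B3gnt7 and Cep128, at -2.48 to -1.14. Gatm, an enzyme of creatine synthesis, had 0.25 to 60.8 CPM (median 9.72) in the zona-high cells and 0 to 404 (median 43.3) in the zona-low cells. Igf2r, the receptor that clears IGF2, had medians of 20.2 and 53.1 CPM, and Nr1d1, a circadian nuclear receptor, 14.6 and 44.2 CPM. Dag1, a receptor for the basement membrane, had medians of 13.3 and 47 CPM, and Anxa2, a membrane-binding annexin, 16.3 and 54.2 CPM. Of the 10, 9 were still lower among control oocytes under 200 CPM of granulosa markers, several by less. Anxa2 was then at -0.20, Acaa2, an enzyme of fatty acid oxidation, at -0.33 and Cep128 at -0.59, and Tuba1a, a tubulin gene, stood at 0.31. In control granulosa cells Anxa2 had 1244 CPM, Acaa2 818 and Tuba1a 1056. Igf2r and B3gnt7 were at -1.85 and -1.16. When cells with 200 CPM or more of stroma markers were also left out (4 against 4 cells), all 10 were lower. Anxa2 was then at -1.11, Acaa2 at -1.51 and Tuba1a at -0.42.

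Granulosa transcripts moved with the lower side. Of 232 genes compared that had at least 100 CPM in control granulosa cells and at least 10 times the level of doxorubicin oocytes, 201 were lower in the zona-high cells, where 57.4% of all genes were, and 92 were at least 2-fold lower, where 5.33% were, with a median of -0.88. This gene list was made after values were seen. It holds genes such as Gata4 that reached 5 CPM in the zona-low set only, and whose direction the filter favours. Of the 232, 137 were lower whichever single cell was left out. Of 168 genes enriched in oocytes by the mirrored rule, 89 were higher, where 42.6% of all genes were, and the median was 0.02. The part of granulosa RNA in single lower genes was not tested.

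Some genes with smaller ratios tracked the zona sum cell by cell. Over the 16 cells, 69 of the 10930 genes (0.631%) had a Spearman correlation of at least 0.7 and 46 (0.421%) of at most -0.7. How many genes would reach these limits by chance was not tested. Among genes of at least 50 CPM, the 10 highest were Cdk10, Cenpn, Rab11a, Map3k6, Nlrp14, Glrx, Zfyve19, Kif3a, Haus8 and E330034G19Rik, at 0.76 to 0.86. Cdk10, a cyclin-dependent kinase gene, had 47.4 to 79.8 CPM (median 62.4) against 1.14 to 61.4 (median 43). Cenpn, a centromere protein gene, had 538 to 924 CPM (median 676) against 292 to 652 (median 546), and 6 of 8 zona-high cells lay above every zona-low cell. Rab11a, a GTPase of recycling endosomes, had 373 to 430 CPM against 311 to 384, a narrow spread and a ratio of only 0.21.

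The same ranking was repeated in the 16 doxorubicin oocytes, which share no cell with the controls. Their zona sum ranged from 2717 to 19579 CPM, 7.21-fold, and 3 of them lay below the lowest control oocyte. The dividing point fell between 8295 and 9295 CPM, so only 4 of them lay at or above the lowest zona-high control cell. Doxorubicin oocyte 4, the cell with the highest sum, is the one whose raw data the series text says were lost. Of 11361 genes compared there, 741 (6.52%) were at least 2-fold higher and 1079 (9.5%) at least 2-fold lower. Every zona-high cell lay above every zona-low cell for 4 genes (0.0352%) and below for 7 (0.0616%).

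Of the 374 genes at least 2-fold higher in zona-high control oocytes, 296 were compared in the doxorubicin oocytes and 181 (61.1%) were higher there too, where 41.2% of all genes were. Of the 583 at least 2-fold lower, 464 were compared and 333 (71.8%) were lower, where 58.8% of all genes were. Genes at least 2-fold higher in both numbered 78, 20.9% of the control list and 10.5% of the doxorubicin list. Those at least 2-fold lower in both numbered 172, 29.5% and 15.9%. Leaving doxorubicin oocyte 4 out gave 60.2% and 73.4%.

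With only the 11 doxorubicin oocytes under 200 CPM of granulosa markers, ranked again as 5 against 5, the higher side kept 60.2% (all genes 43.3%). The lower side had 46.5% in the same direction (all genes 56.7%). In this subset 7 of 7 stroma markers were higher in the zona-high cells (median 3.32). So were 151 of 193 granulosa-enriched genes by the rule above (median 1.38). Doxorubicin oocytes 2 and 6, with 531 and 551 CPM of stroma markers, were among those zona-high cells. The subset thus cannot show whether lower genes agree in cells with few transcripts of other cell types. In the doxorubicin oocytes the granulosa sum ran from 27.9 to 3167 CPM (median 281) in the zona-low and from 7.78 to 298 (median 78.7) in the zona-high cells.

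Most of the maternal genes kept their direction when all doxorubicin oocytes were ranked. All 8 subcortical maternal complex members were higher in the zona-high cells, with a median of 0.90, and 0.80 without doxorubicin oocyte 4. Over all genes compared there, 41.7% were higher and 58.3% lower. Nlrp2 was higher by summed counts, at 26.2 against 0.27 CPM, but its median was 0 CPM in both sets. Its ratio of 6.58, from few cells, still counts in the list median. Padi6 was at 1.21, Khdc3 at 1.44, Ooep at 1.30, Nlrp5 at 0.59 and Tle6 at 0.56. With doxorubicin oocytes under 200 CPM of granulosa markers only, 6 of 8 were higher and the median was 0.67, while Nlrp5 stood at -0.08. All 8 Nlrp and Oog members compared were higher, with a median of 1.38, and 0.77 in the cells with few granulosa transcripts. Oog3, at -0.40 in control oocytes, was at 3.27 here and so changed direction. Nlrp9a had 7.28 CPM against 0. Nlrp14 was at 1.11 and Nlrp4a at 2.22.

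Npm2 was at 1.70, Zar1 at 1.20, Gdf9 at 0.81 and Dnmt3b at 0.21 in doxorubicin oocytes. The Dnmt3b medians there were 24.4 CPM in the zona-high and 25.7 CPM in the zona-low cells. Chromatin genes had 12 of 17 higher, where 41.7% of all genes were, and a median of 0.21. Meiotic prophase genes had 5 of 18 higher and a median of -0.21 there, with Sycp3 at -0.76. By summed ratio, all 10 of the named higher genes and 9 of the named lower genes had the same direction. Dnah11, a named higher gene at 0.36, had doxorubicin medians of 16.8 CPM in the zona-high and 17.3 CPM in the zona-low cells. By correlation with the zona sum 8 of the lower genes had it, and Nr1d1 had doxorubicin medians of 26 CPM in the zona-high and 19 CPM in the zona-low cells. The exception by ratio was B3gnt7, a glycosyltransferase gene, at 0.57. Of the 10 genes closest to the zona sum 8 kept it, with Zfyve19 at -0.23 and Kif3a at -0.26. Of the 2 genes that separated the control sets, Rnf167 was at -0.21 and Arpc1a at 0.19.

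**Figure D5:**
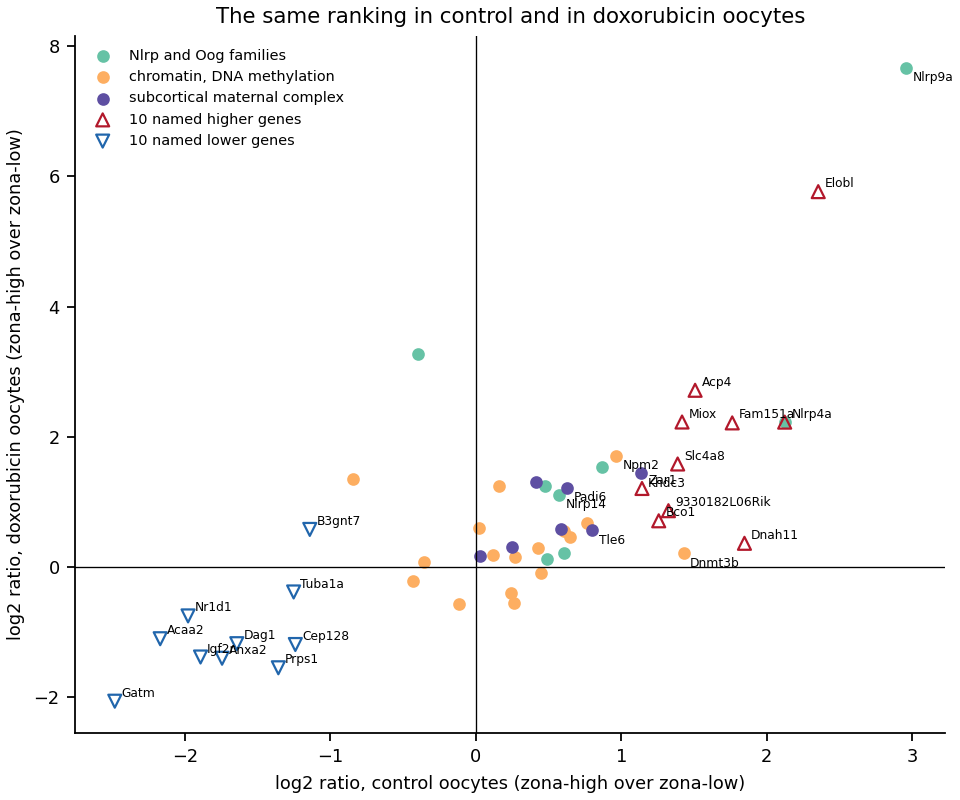
Each point is 1 gene with its log2 ratio (zona-high over zona-low) in control oocytes on the horizontal axis and in doxorubicin oocytes on the vertical axis, without Nlrp2, which was at 0 in all zona-low control cells. All 10 named higher genes lie at the upper right and 9 of 10 named lower genes in the lower left.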

How the data were processed

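Low-input full-length RNA sequencing of 61 single cells, per the labels' protocols, gave 1 table of estimated counts, deposited by the authors; 34.0% of nonzero values are not whole, and counts were rounded. The submitters' processing notes name Partek, Bowtie2, HISAT2, DESeq2 and build mm10. The counting tool is not given in the sources used here. The table has 23927 gene rows, of which 22 hold symbols turned into dates (0.144% of counts, kept in totals, never named). All columns were matched by name, and 0 were left out. No 2 control oocytes agreed within sampling noise.

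CPM used the total of all rows. Counts were summed over 8 zona-high and 8 zona-low control oocytes, and the log2 ratio of their CPM is the main value, with a set under 3 counts put at 3. Ratios have no error beyond counting error, which is far smaller than the spread between cells. Reads amplified by PCR are not independent molecules. With 1 sample and sets chosen from the data, no test was made. Ratios were given for genes of at least 5 CPM in either set.

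Named genes are, per direction, the 10 with the largest smallest ratio over leaving out each of 16 cells, with at least 50 CPM in the higher set and at least 5 reads in 75% of its cells; the 10 closest to the zona sum by Spearman correlation; and, per list, the most abundant member and those with the highest and lowest ratio. Other list members are named as examples. The ranking rule, lists and examples were chosen with earlier results of these data known. The calculation was tested on simulated data. Alternatives were equal weight of cells, medians, edgeR TMM and DESeq2 scaling, other rankings, filters and subsets of cells, and leaving out each cell. Subsets by stroma markers, of doxorubicin oocytes by granulosa markers, and without control oocyte 16 or doxorubicin oocyte 4 were chosen after seeing the data. Promoter windows came from RefSeq GRCm38.p6. Python 3.11.15, numpy 2.4.6, pandas 2.3.3, scipy 1.17.1, matplotlib 3.10.9, R 4.3.3, edgeR 4.0.16 and DESeq2 1.42.0 were used.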

Additional observations from a re-analysis of the deposited data

How the results depend on the processing

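No paired analysis was possible because no result comes from a test and the 2 sets are different cells of 1 group. The count of genes at least 2-fold higher, 374, was 590 with medians of cells, 648 with 5 against 5 cells, 2960 with a filter of 3 counts, 85 with 20 CPM, 676 with cells under 200 CPM of granulosa markers and 655 with those also under 200 CPM of stroma markers, and 331 to 446 over leaving out each cell. The count at least 2-fold lower, 583, was 1053 with 5 against 5 cells, 3504 with 3 counts, 128 with 20 CPM and 1153 with few granulosa and stroma transcripts, and 586 to 713 over leaving out each cell. Smaller sets separate more genes: the 0 genes above became 1 with the log2 ranking, 83, 68, 201 and 3 with 5 against 5 cells, few granulosa, few granulosa and stroma transcripts, and without control oocyte 16, and 0 to 5 over leaving out each cell. The 2 genes below became 1 with TMM, 1 with DESeq2 factors, 4 with the log2 ranking, then 66, 67, 248 and 4 in the same order, and 2 to 5. The share of 2-fold genes with the same direction in doxorubicin oocytes, 67.6%, was 62.4% with the log2 ranking, 55.7% with 3 counts, 81.9% with 20 CPM, 55.3% with control cells, 52.1% with doxorubicin cells and 60.3% with both restricted to few granulosa transcripts, 61.6% with few stroma transcripts as well, and 64.3% to 69.0% over leaving out each cell. The subcortical maternal complex median, 0.61, was 0.64 with equal weights, 0.64 with medians, 0.67 with TMM, 0.64 with DESeq2 factors, 0.61 without zona genes in the total, 0.24 with the log2 ranking, 0.65 with 5 against 5 cells, 0.59 with 20 CPM, 0.44 and 0.54 with few granulosa and few granulosa and stroma transcripts, 0.57 without control oocyte 16 and 0.52 to 0.73 over leaving out each cell. The oocyte-secreted median, 0.28, was 0.20, 0.11, 0.34, 0.19, 0.13, -0.39, -0.075 and 0.20 with equal weights, medians, TMM, the log2 ranking, 5 against 5 cells, few granulosa, few granulosa and stroma transcripts and no control oocyte 16, and 0.11 to 0.41. The meiotic prophase median, 0.03, was -0.041, -0.17, -0.078, 0.17, -0.043 and -0.087 with medians, the log2 ranking, 5 against 5 cells, 20 CPM, few granulosa and stroma transcripts and no control oocyte 16, and -0.013 to 0.15. With 5 against 5 cells the stroma list median was 0.025, Dcn 0.025 and Gja1 0.57. With few granulosa transcripts these were 2.51, 2.07 and 0.63, Bco1 -0.60 and Tuba1a 0.31. With few granulosa and stroma transcripts Dcn was -6.43, Gja1 -0.68, Bco1 0.09 and Tuba1a -0.42. With the log2 ranking Elobl was -0.11, Dnah11 -0.21, Nlrp2 -7.72 and Cacna1h 1.19. The Nlrp2 value rests on control oocyte 16 alone, with the other set put at 3 counts. Apart from the rankings and subsets, which change the cells, the cause was not tested. At 7873836 to 31262609 counts per cell, spread between cells rather than depth sets the precision.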

Other observations

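Several groups with metabolic or stress roles were near level between the zona-high and zona-low control oocytes. Over all genes compared between these sets, 42.6% were higher in the zona-high cells. Cholesterol synthesis genes had 8 of 20 higher and a median log2 ratio of -0.01, with Fdft1, the squalene synthase, at medians of 1077 and 1227 CPM. Glycolysis genes had 5 of 15 higher and a median of -0.13, but Ldhb, the lactate dehydrogenase subunit abundant in oocytes, had 2243 to 5949 CPM (median 4433) against 671 to 5413 (median 3284) and a ratio of 0.49, which turned to -0.39 with only cells under 200 CPM of granulosa markers. Proteasome genes had 8 of 31 higher and a median of -0.07. Of 9 genes of the p53 family and its targets, 2 were higher, with a median of -0.09, and Mdm2, the p53-degrading ligase, had medians of 155 and 168 CPM. In the doxorubicin oocytes 11 of 14 such genes were higher, where 41.7% of all genes were, with a median of 0.17. In the doxorubicin oocytes under 200 CPM of granulosa markers 12 of 14 were higher, where 43.3% of all genes were, with a median of 0.96. In that subset 7 of 7 stroma markers and 15 of 15 immediate early genes were higher too. The part of transcripts from other cell types in the p53 values was not tested. Itpr1, the calcium release channel gene of the egg, had 63.7 to 169 CPM (median 114) in the zona-high and 108 to 378 (median 182) in the zona-low control cells, with a Spearman correlation of -0.82 against the zona sum; it was chosen after its values were seen.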
